A study of Mus musculus with 12 samples.

Results

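Egr1, Egr2, Egr3, Nr4a1, Nr4a2, Nr4a3 and Nfatc1 are transcription factor genes that T cells switch on or sustain after their antigen receptor (TCR) is engaged. They were taken by gene symbol, and all 7 of the 7 listed genes were present among the 13625 symbols that both deposited count tables hold. Their levels were followed in CD8+ T cells from spleens of OT-I mice, a transgenic line whose TCR recognises a chicken ovalbumin peptide. The cells had been activated with antibodies to CD3e and CD28 plus IL-2, and they received either ATRA (all-trans retinoic acid, a vitamin A metabolite, 5 ng/mL) or, as CTRL, an equal volume of its solvent DMSO in that phase only. After 5 further days they met GL261, a mouse glioma line made to express ovalbumin, for 72 h at 1% O2, with neither ATRA nor DMSO present.

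The 4 groups of 3 libraries each were restimulated ATRA cells and restimulated CTRL cells, which were given antibody to CD3e for 24 h more after the co-culture, and co-cultured ATRA cells and co-cultured CTRL cells, which were sorted when the co-culture ended. All were sorted as live CD45.2+ cells. The setting is an in vitro model in which every T cell carries the same TCR, and it is not labelled whether replicate libraries derive from different mice or cultures. The p-values below therefore measure only the spread between these libraries. Same-numbered ATRA and CTRL libraries of a state shared a labelled batch, while the restimulated and co-cultured libraries came from different batch sets and separate tables, so restimulation and batch set cannot be told apart.

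Engagement of the TCR raises calcium, which activates the phosphatase calcineurin and lets NFAT proteins such as NFATc1 enter the nucleus, and it activates the Ras and ERK kinases, which act through serum response factor and its partners on the Egr genes. Egr proteins are zinc finger factors; Egr2 and Egr3 are known in mouse T cells for restraining responses through genes such as Cblb and the diacylglycerol kinases. The NR4A proteins are orphan nuclear receptors that are controlled largely by how much is made, and in mouse CD8+ T cells they are known, with NFAT, for their part in exhaustion.

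Promoter windows are shown for the 4 of 7 members for which an entry was used, since some entries were left out by chromosome beforehand. All 4 of these members varied in the same direction in the results that follow. Each window runs from 250 bases before to 50 bases after a RefSeq transcription start (build GRCm38.p6), namely chr10:67537619-67537918 on the + strand for Egr2, chr15:101266596-101266895 on the + strand for Nr4a1, chr2:57123954-57124253 on the - strand for Nr4a2 and chr4:48045055-48045354 on the + strand for Nr4a3. Of 5 entries for Egr2, the one that starts at the annotated principal transcript is printed; the window of Nr4a3 starts 152 bases from that of its principal transcript. Capitals mark the motif matches found on either strand.
Egr2: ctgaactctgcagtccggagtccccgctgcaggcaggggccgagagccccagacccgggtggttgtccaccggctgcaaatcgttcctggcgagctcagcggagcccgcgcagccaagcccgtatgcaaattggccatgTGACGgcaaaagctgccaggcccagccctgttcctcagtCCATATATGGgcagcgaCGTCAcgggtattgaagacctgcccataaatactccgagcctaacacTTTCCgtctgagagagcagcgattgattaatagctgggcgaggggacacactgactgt
Nr4a1: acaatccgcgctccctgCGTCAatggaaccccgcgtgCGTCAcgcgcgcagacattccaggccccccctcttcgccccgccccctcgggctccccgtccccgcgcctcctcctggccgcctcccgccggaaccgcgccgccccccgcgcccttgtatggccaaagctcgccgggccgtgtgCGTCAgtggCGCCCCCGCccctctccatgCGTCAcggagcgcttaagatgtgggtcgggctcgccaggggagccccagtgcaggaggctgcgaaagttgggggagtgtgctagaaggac
Nr4a2: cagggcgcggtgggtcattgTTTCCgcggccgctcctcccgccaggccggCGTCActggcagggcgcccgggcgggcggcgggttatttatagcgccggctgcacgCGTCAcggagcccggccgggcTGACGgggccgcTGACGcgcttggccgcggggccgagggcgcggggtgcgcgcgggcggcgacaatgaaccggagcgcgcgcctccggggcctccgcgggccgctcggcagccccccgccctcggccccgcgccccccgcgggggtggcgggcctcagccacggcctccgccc
Nr4a3: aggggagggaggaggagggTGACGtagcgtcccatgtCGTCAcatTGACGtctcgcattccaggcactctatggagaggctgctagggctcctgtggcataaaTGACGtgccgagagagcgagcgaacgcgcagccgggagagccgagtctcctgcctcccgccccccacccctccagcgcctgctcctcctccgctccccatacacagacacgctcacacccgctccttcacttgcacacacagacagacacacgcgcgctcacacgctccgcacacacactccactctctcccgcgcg
The capitals in Egr2 include CCATATATGG at -72 to -63, a CArG box (the site bound by serum response factor), which 1.63% of the 32851 windows of the same length hold. The CRE half-site TGACG, the core letters recognised by CREB family factors, had 2 matches in Egr2 and 4 matches each in Nr4a1, Nr4a2 and Nr4a3, and 20.8% of windows hold at least 1. The NFAT core GGAAA was found once each in Egr2 and Nr4a2 (61.3% of windows hold it), and an EGR site (GCGGGGGCG or GCGTGGGCG) once in Nr4a1 at -60 to -52 (3.47% of windows). The full CRE TGACGTCA, which contains the half-site, and the NBRE AAAGGTCA, the site bound by NR4A monomers, had no match in the 4 windows and occur in 1.79% and 1.51% of all windows. GC content was 60.0%, 72.3%, 81.7% and 64.7% in the order printed, against a median of 52.7% over all windows. These matches describe letters and were not measured as binding.

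**Figure D1:**
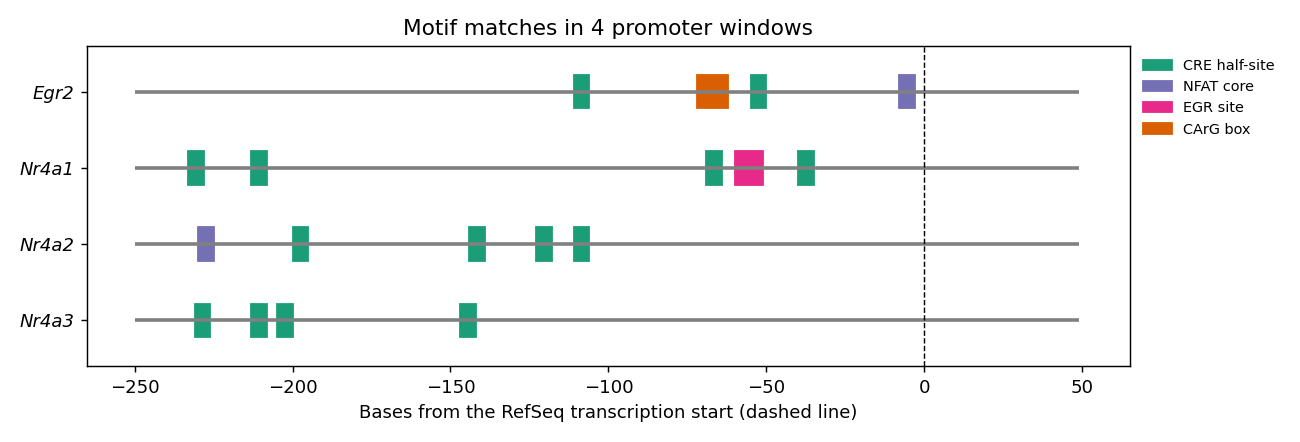
Motif matches in the promoter windows of Egr2, Nr4a1, Nr4a2 and Nr4a3, one row per gene, by position in bases from the RefSeq transcription start (dashed line). Marks are coloured by motif; the CArG box stands in the Egr2 row, and CRE half-sites stand in all 4 rows.

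Total counts per library ranged between 16286775 and 20114121 after restimulation and between 23558244 and 26111497 after co-culture, so 3 counts in the smallest library amount to 0.184 CPM (counts as a rate of the library size, with sizes adjusted over all 12 libraries by the trimmed mean method). Pearson correlations across genes between libraries of a group were 0.98 or above except for co-cultured ATRA replicate 3, which stood apart at 0.952 and 0.965. This library is given separately below, because Egr1, Egr3 and Nr4a3 were 8.19-fold, 4.9-fold and 7.98-fold lower in it than in the mean of the other 2 libraries of its group, while 2.98% of 12364 genes were over 4-fold lower than in both. Co-cultured CTRL replicate 1 also differed from its group, with correlations of 0.98 and 0.982 against 0.993 for the other pair, and it had the highest value of its group for each of the 7 members. CD8+ T cell markers were present throughout and differed between groups. Those of the list summed to 2380 to 2460 CPM in restimulated ATRA cells and 1890 to 2130 in restimulated CTRL cells. The sums were 2810 to 3050 in co-cultured ATRA cells and 3160 to 3930 in co-cultured CTRL cells. Trac had no counts listed after co-culture, so these sums cover 7 genes there and 8 after restimulation. Cd8a had 148 to 153, 154 to 189, 271 to 367 and 278 to 367 CPM in the same order of groups, Lck, the kinase of the coreceptor, had 148 to 159, 297 to 333, 348 to 411 and 357 to 411 CPM, and Prf1, which encodes perforin, had 385 to 396, 123 to 146, 236 to 275 and 710 to 844 CPM. The part of these levels in those of the 7 members was not tested. Cd3e stood at 181 to 187 CPM in restimulated ATRA cells, 176 to 217 in restimulated CTRL cells, 161 to 192 in co-cultured ATRA cells and 174 to 213 in co-cultured CTRL cells, and Cd4 did not pass 1.23 CPM in any library.

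Egr1 is an immediate early gene that ERK signalling induces. It had 213, 204 and 213 CPM in restimulated ATRA cells, against 34.2, 36.8 and 34.8 CPM in restimulated CTRL cells. After co-culture alone it had 98.9, 87 and 11.2 CPM in ATRA cells, against 177, 133 and 128 CPM in CTRL cells. The ATRA libraries were thus all above the CTRL libraries after restimulation and all below them after co-culture, with the third co-cultured ATRA library far under the other two. The restimulated difference was 5.99-fold (log2 2.58, SE 0.07, adjusted p = 8.56e-11, edgeR's quasi-likelihood test). After co-culture the log2 fold change of -1.14 (SE 0.69) did not pass the test (adjusted p = 0.229); without ATRA replicate 3 it was -0.64 (SE 0.15, adjusted p = 0.0148).

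Egr2, a factor linked to T cell anergy, showed the widest range of the 7 genes, 42.3-fold between its highest and lowest group means. Restimulated ATRA cells had 152, 146 and 150 CPM, against 23.2, 27.9 and 17.8 CPM in restimulated CTRL cells. Co-cultured ATRA cells had 5.59, 5.12 and 4.38 CPM, against 250, 190 and 198 CPM in co-cultured CTRL cells. No library of any group overlapped with another group, and the library that stood apart for Egr1 lay close to its group for Egr2. Egr2 rose 6.54-fold with prior ATRA after restimulation (log2 2.71, SE 0.14, adjusted p = 4.24e-08) and was 42-fold lower after co-culture (log2 -5.39, SE 0.18, adjusted p = 8.01e-05), the third smallest p of 12111 genes.

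Egr3, the closest partner of Egr2 in anergy programmes, followed another course. It had 8.82, 8.42 and 11.2 CPM in restimulated ATRA cells, against 16.6, 20 and 15.4 CPM in restimulated CTRL cells. After co-culture it had 12, 10.5 and 2.21 CPM in ATRA cells, against 39.2, 25.8 and 25.1 CPM in CTRL cells. The ATRA libraries lay under the CTRL libraries in both states, which was so for no other member. Egr3 was 1.82-fold lower in ATRA cells after restimulation (log2 -0.86, SE 0.17, adjusted p = 0.000759). After co-culture the log2 fold change was -1.85 (SE 0.57, adjusted p = 0.0465), -1.40 (adjusted p = 0.00319) without ATRA replicate 3 and -1.61 (adjusted p = 0.125) without CTRL replicate 1; the call was also lost without CTRL replicate 2 or 3 or ATRA replicate 2 (adjusted p = 0.101, 0.102 and 0.0884).

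Nr4a1, which encodes Nur77 and is widely used as a reporter of TCR signal strength, had 46.6, 53.1 and 52.6 CPM in restimulated ATRA cells, against 15.4, 13.3 and 9.8 CPM in restimulated CTRL cells. In the co-cultured libraries it had 14.7, 15.5 and 19.5 CPM in ATRA cells, against 64.7, 31.3 and 35.5 CPM in CTRL cells. Restimulated ATRA cells were above restimulated CTRL cells in every library, and co-cultured ATRA cells below co-cultured CTRL cells. The log2 fold changes were 1.99 (SE 0.15, adjusted p = 3.08e-07) after restimulation and -1.40 (SE 0.29, adjusted p = 0.0141) after co-culture. The co-culture call was lost without ATRA replicate 2 (adjusted p = 0.0522), and the value was -1.01 (SE 0.16, adjusted p = 0.0142) without CTRL replicate 1.

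Nr4a2, which encodes Nurr1, had 112, 101 and 102 CPM in restimulated ATRA cells, against 37.3, 30.5 and 25.7 CPM in restimulated CTRL cells. Its co-cultured values were 17.9, 20.4 and 30.4 CPM in ATRA cells, against 251, 129 and 148 CPM in CTRL cells. ATRA libraries were again the higher ones after restimulation and the lower ones after co-culture, without overlap. Nr4a2 rose 3.39-fold with ATRA after restimulation (log2 1.76, SE 0.12, adjusted p = 2.05e-07) and was 7.7-fold lower after co-culture (log2 -2.94, SE 0.32, adjusted p = 0.00186).

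Nr4a3, which encodes NOR1, had 36.9, 37.3 and 41.6 CPM in restimulated ATRA cells, against 13, 15.3 and 12.6 CPM in restimulated CTRL cells. In co-cultured cells the values were 12.3, 10.2 and 1.32 CPM with ATRA, against 132, 103 and 102 CPM in CTRL cells. No 2 neighbouring groups in the order of levels overlapped, although the third co-cultured ATRA library lay well under its group. Nr4a3 rose 2.84-fold with ATRA after restimulation (log2 1.5, SE 0.12, adjusted p = 3.89e-07) and was 14-fold lower after co-culture (log2 -3.80, SE 0.70, adjusted p = 0.00964). Without ATRA replicate 3 the co-culture value was -3.31 (SE 0.17, adjusted p = 4.78e-05).

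Nfatc1, the NFAT gene whose own transcription is raised by NFAT, moved least. It had 155, 141 and 149 CPM in restimulated ATRA cells, against 129, 140 and 131 CPM in restimulated CTRL cells. The co-cultured cells had 141, 135 and 109 CPM with ATRA, against 211, 175 and 187 CPM in CTRL cells. ATRA libraries were narrowly above CTRL libraries after restimulation and below them after co-culture, without overlap in either state. The restimulated log2 fold change of 0.16 (SE 0.07) did not pass the test (adjusted p = 0.0544) except without CTRL replicate 2 (0.19, adjusted p = 0.0374). Nfatc1 fell by 0.57 on the log2 scale after co-culture (SE 0.14, adjusted p = 0.0235), a call lost without any 1 of the CTRL libraries (adjusted p = 0.0661, 0.0564 and 0.0807) or without ATRA replicate 2 (adjusted p = 0.0602).

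**Figure D2:**
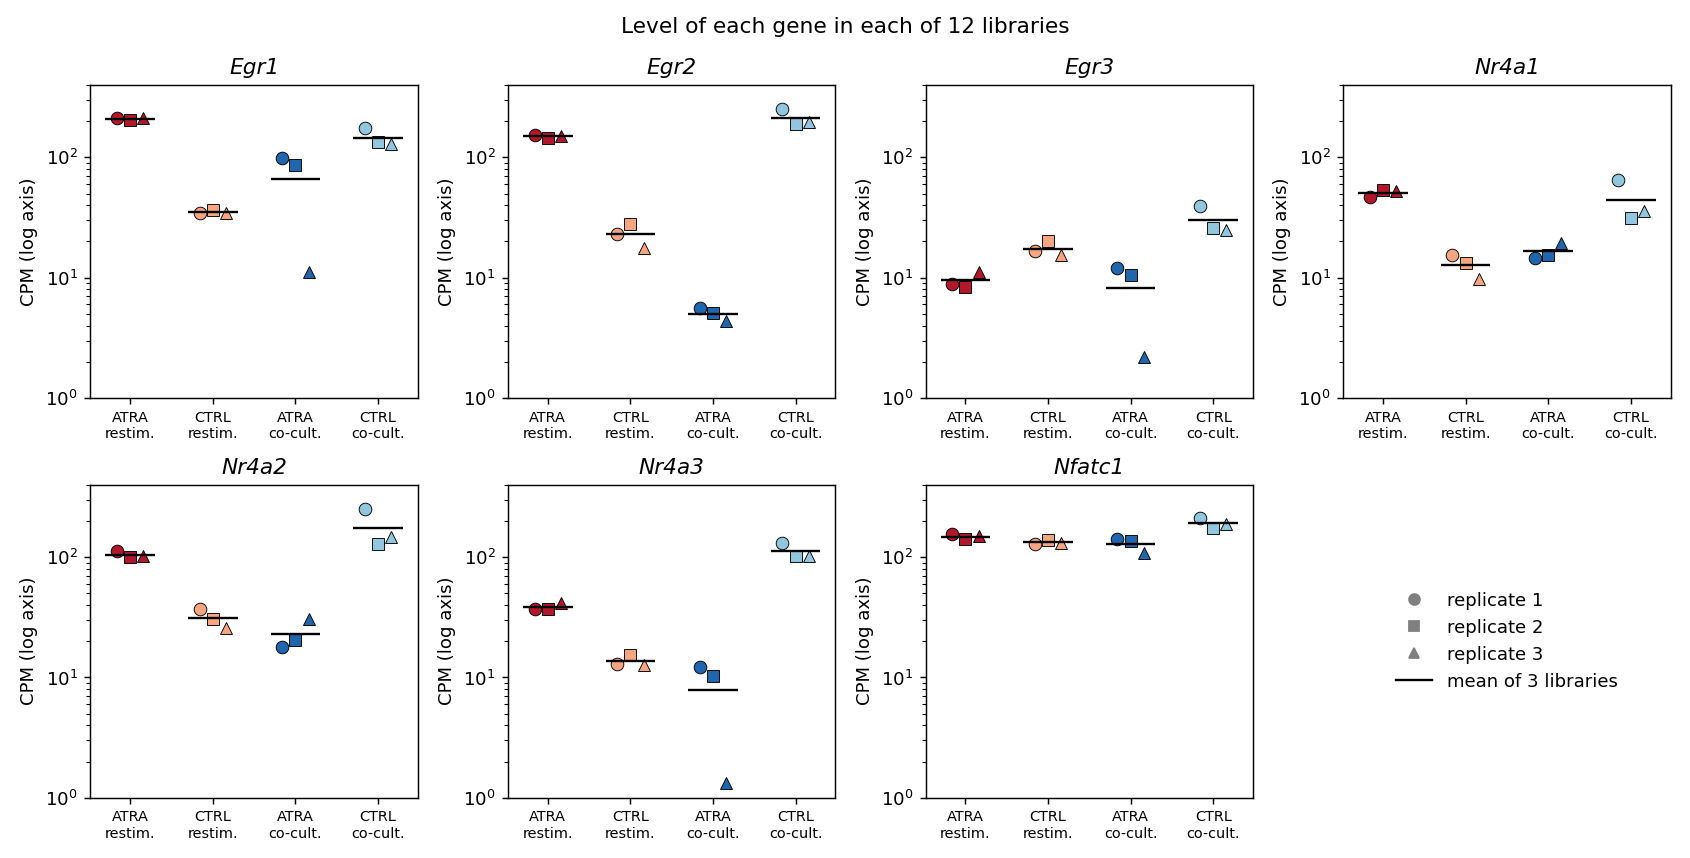
Level of each member in each library, in CPM on a log axis, for restimulated ATRA, restimulated CTRL, co-cultured ATRA and co-cultured CTRL cells, left to right; symbols are libraries, shaped by replicate number, and bars group means. Egr2 lies between 4.38 and 5.59 CPM in co-cultured ATRA cells and between 190 and 250 CPM in co-cultured CTRL cells, whereas Nfatc1 spans 109 to 211 CPM over all libraries.

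Across the 7 genes, prior ATRA went with higher levels in 5 and a lower level in 1 after restimulation, where 31.8% and 30.8% of the 12783 genes tested were called higher and lower (62.6% in either direction). After co-culture 6 of 7 were called lower, against 15.5% of 12111 genes, and none was called higher by edgeR or DESeq2 (18.1% of genes by edgeR, and 33.6% in either direction), since all 7 log2 fold changes were below 0. Without co-cultured ATRA replicate 3 all 7 were called lower, against 23.1% of all genes in that fit. Without CTRL replicate 1 the count was 4, against 12.4% of genes, and without ATRA replicate 2 it was 3, against 7.24%. With both libraries that stood apart left out, all 7 were called lower, against 32.4% of genes, and Egr1 had a log2 fold change of -0.47 (SE 0.07, adjusted p = 2.93e-05). The ATRA and CTRL libraries did not overlap for any of the 7 genes in either state, which also held for 68.8% of genes tested after restimulation and 57% after co-culture. In bulk samples a smaller share of cells that express a gene and less RNA per cell cannot be told apart.

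**Figure D3:**
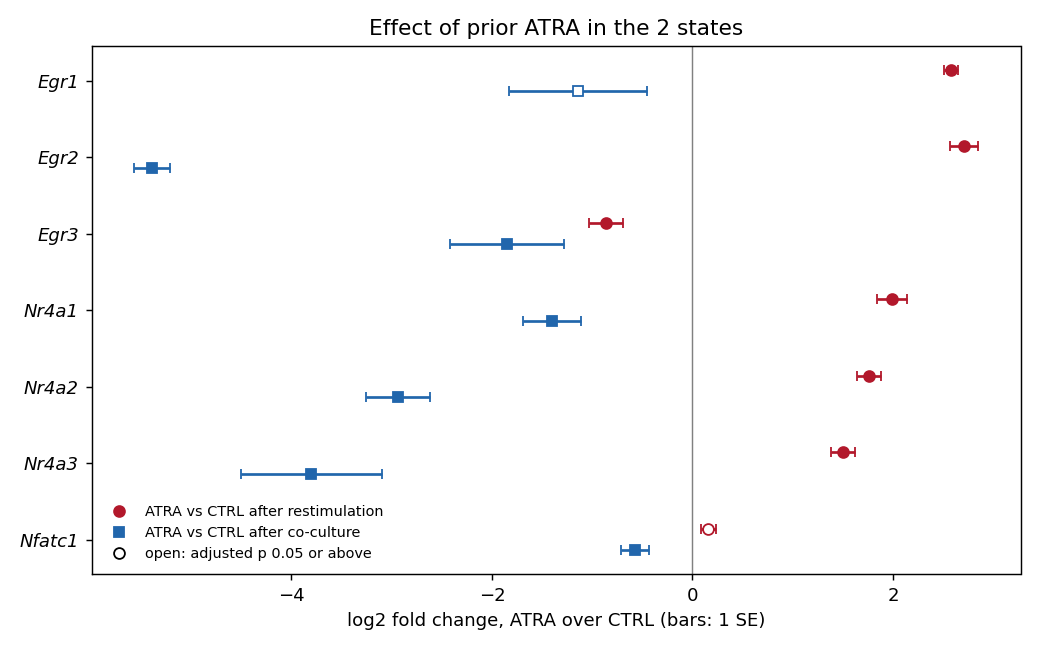
Log2 fold change of ATRA over CTRL for each member (bars, 1 SE), after restimulation (circles) and after co-culture (squares); open symbols did not pass an adjusted p of 0.05. Egr2 stands at 2.71 after restimulation and at -5.39 after co-culture, and Egr3 lies below 0 in both states.

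The same directions were seen within each labelled batch. After restimulation, the ATRA library minus the CTRL library of its batch gave log2 differences of 2.63, 2.47 and 2.61 for Egr1 and 2.71, 2.38 and 3.07 for Egr2. After co-culture, Egr1 gave -0.84, -0.61 and -3.50 and Egr2 gave -5.46, -5.19 and -5.47. Batch 3 of the co-culture, which holds the ATRA library that stood apart, thus widened the Egr1 difference and left that of Egr2 in place. For Nr4a3 the co-culture differences were -3.42, -3.32 and -6.17, and those of Nr4a2 were -3.80, -2.66 and -2.28. Nr4a1 and Nr4a2 had their widest co-culture difference in batch 1, which holds the CTRL library that stood apart.

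**Figure D4:**
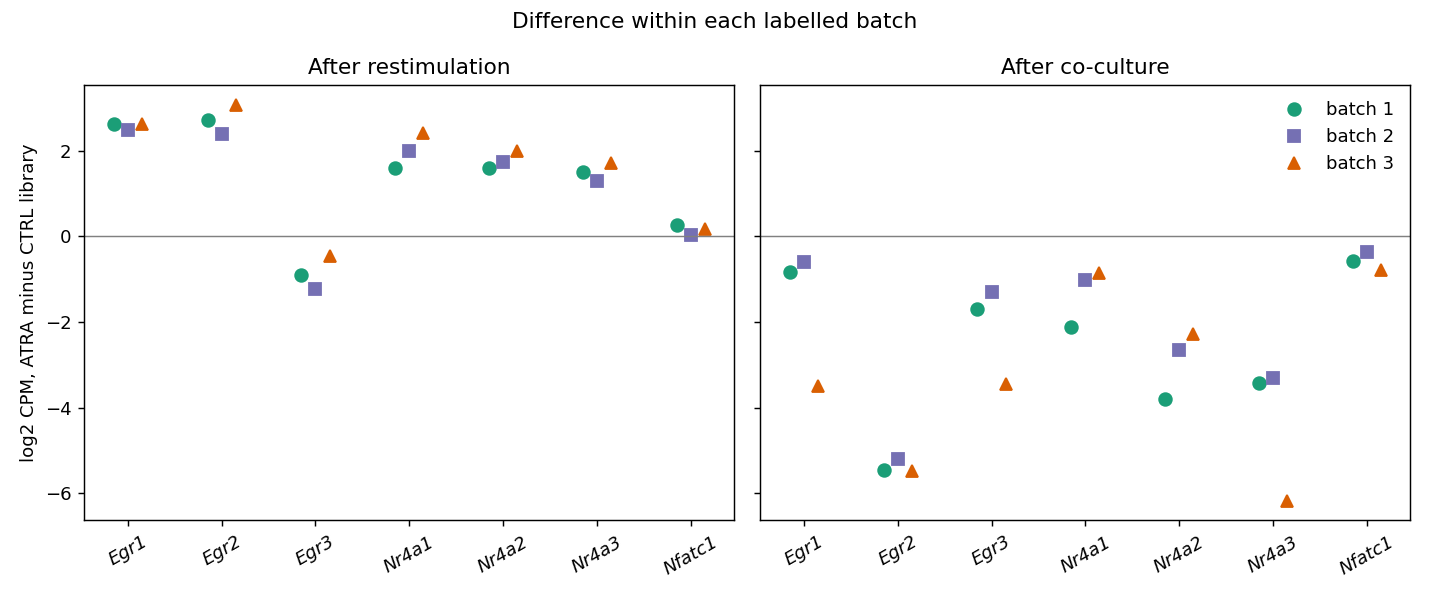
Log2 CPM of the ATRA library minus that of the CTRL library of the same labelled batch, for each member after restimulation (left) and after co-culture (right); each symbol is 1 batch. Every member is below 0 in all 3 co-culture batches, and Egr3 is the only one of the 7 below 0 in the restimulated batches.

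The ATRA effect was then compared between states, as the log2 fold change after restimulation minus that after co-culture. This difference was called above 0 for 6 of 7 members, against 23.6% of 12364 genes tested (49.2% in either direction, 25.5% below 0). It was called below 0 for none by edgeR or DESeq2, since all 7 differences were above 0. The difference is signed and does not say in which state the effect was larger in size. Egr2 had the widest difference of the 7, 8.10 (SE 0.25, adjusted p = 1.46e-09), the second smallest p over all genes. Nr4a3 followed at 5.31 (SE 0.70, adjusted p = 8.4e-05) and Nr4a2 at 4.70 (SE 0.37, adjusted p = 2e-06). Egr1 had a difference of 3.72 (SE 0.75, adjusted p = 0.00161), Nr4a1 of 3.39 (SE 0.36, adjusted p = 1.54e-05) and Nfatc1 of 0.73 (SE 0.15, adjusted p = 0.00171). For Egr3 the difference was 0.99 (SE 0.61) and did not pass the test (adjusted p = 0.199), and it was 0.31 (SE 0.22, adjusted p = 0.249) without both libraries that stood apart. Without those libraries the other 6 kept their calls, with Egr1 at 3.06 and Nr4a3 at 4.68.

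Read the other way, restimulated cells were set against co-cultured cells of the same treatment, a contrast in which restimulation and batch set cannot be told apart. In ATRA cells 5 of 7 members were higher after restimulation, against 29.8% of 12364 genes (31.5% lower, 61.3% in either direction), and all 7 log2 fold changes were above 0. Egr2 was 29.5-fold higher (log2 4.88, SE 0.18, adjusted p = 1.02e-08), Nr4a3 4.84-fold higher (log2 2.28, SE 0.49, adjusted p = 0.00178) and Nr4a2 4.6-fold higher (log2 2.20, SE 0.26, adjusted p = 2.43e-05). Egr1 and Nr4a1 rose by 1.67 (SE 0.52, adjusted p = 0.0155) and 1.61 (SE 0.25, adjusted p = 0.000175) on the log2 scale, while Egr3 (0.20, adjusted p = 0.712) and Nfatc1 (0.21, adjusted p = 0.106) did not pass the test. The ATRA values of Egr1 and Nr4a3 were 1.17 and 1.78 without ATRA replicate 3, and that of Egr3 was -0.25 (adjusted p = 0.309).

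In CTRL cells the direction was opposite, and 6 of 7 members were lower after restimulation, against 16.6% of genes (15.9% higher, 32.5% in either direction), with all 7 log2 fold changes below 0. Egr2 was 9.27-fold lower in restimulated CTRL cells (log2 -3.21, SE 0.17, adjusted p = 1.06e-07) and Nr4a3 8.2-fold lower (log2 -3.04, SE 0.50, adjusted p = 0.000787). Nr4a2 had -2.50 (adjusted p = 3.49e-05), Egr1 -2.05 (adjusted p = 0.0126), Nr4a1 -1.77 (adjusted p = 0.000312) and Nfatc1 -0.52 (adjusted p = 0.00294). Egr3 had -0.79 (SE 0.43, adjusted p = 0.177), and it passed the test when co-cultured ATRA replicate 3, which enters the shared estimate of spread, was left out (-0.80, SE 0.18, adjusted p = 0.00235). The restimulated and the co-cultured contrasts share libraries with the ATRA comparisons above and are not separate support for them.

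The order of group means fell into 3 patterns. For Egr2, Nr4a2, Nr4a3 and Nfatc1 co-cultured CTRL cells stood highest, then restimulated ATRA cells, restimulated CTRL cells and co-cultured ATRA cells. The lowest pair of groups overlapped for Nr4a2 and Nfatc1 and did not for Egr2 and Nr4a3. For Egr1 and Nr4a1 restimulated ATRA cells stood highest, then co-cultured CTRL cells, co-cultured ATRA cells and restimulated CTRL cells; the lowest pair overlapped for both genes, and the highest pair overlapped for Nr4a1. Egr3 ran from co-cultured CTRL cells through restimulated CTRL cells to restimulated ATRA cells and co-cultured ATRA cells, with overlap in the lowest pair. The ratio of the highest to the lowest group mean was 42.3 for Egr2, 14.2 for Nr4a3, 7.69 for Nr4a2, 5.96 for Egr1, 3.96 for Nr4a1, 3.65 for Egr3 and 1.49 for Nfatc1.

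Levels of different genes can be set side by side only per transcript length, and the authors' deposited TPM table, whose values are divided by transcript length and scaled to a fixed library sum, covers the restimulated libraries. Egr2 was the most abundant member in restimulated ATRA cells at 168 ± 12.6 TPM (SD, n = 3), and had 25.8 ± 6.13 TPM in restimulated CTRL cells. Egr1 had 103 ± 1.74 TPM in ATRA cells and 17.3 ± 0.233 TPM in CTRL cells. Nfatc1 was the most abundant member in CTRL cells, with 45.9 ± 1.56 TPM in ATRA cells and 39.2 ± 0.368 TPM in CTRL cells. Of the NR4A genes, Nr4a2 had 47.4 ± 2.43 TPM in ATRA cells and 14 ± 2.69 TPM in CTRL cells, above Nr4a1 (27.5 ± 2.25 and 6.69 ± 1.73) and Nr4a3 (15.1 ± 2.66 and 5.77 ± 0.968). Egr3 was the least abundant member in ATRA cells at 8.48 ± 0.895 TPM, against 14.7 ± 2.28 TPM in CTRL cells. Egr4, the remaining family gene, had 0 to 3 counts per restimulated library and 0 to 4 counts per co-cultured library and was not tested.

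Genes that work with these factors were examined in lists chosen with the members, and their counts are to be read against the shares of all genes called higher and lower, 31.8% and 30.8% after restimulation and 18.1% and 15.5% after co-culture. The restimulated counts of the calcineurin and NFAT genes (30% higher and 40% lower) and the upstream factors (36% and 24%) lay near those shares. So did those of the TCR complex list (40% and 25%), and nothing is read from these counts. The same holds after co-culture for the counts of the partners (22.2% and 22.2%), the calcineurin and NFAT genes (20% and 10%) and the TCR complex list (15% and 25%). Farther from the shares after co-culture were the upstream factors (29.2% and 8.33%) and the lower calls of the early genes (17.5% higher and 27.5% lower). Whether these counts differ from those of all genes was not tested. Of 9 tested partners and corepressors of Egr and NR4A proteins, 2 were higher and 4 lower in ATRA cells after restimulation (median log2 fold change -0.23, all genes 0.02), and 2 were higher and 2 lower after co-culture (median 0.02, all genes 0.01). Nab2, an Egr target that encodes a corepressor of Egr proteins, had 33 ± 1.64 CPM in restimulated ATRA cells and 39.1 ± 10 CPM in restimulated CTRL cells, and 52.1 ± 4.28 CPM in co-cultured ATRA cells and 92.9 ± 5.17 CPM in co-cultured CTRL cells. It fell after co-culture (log2 -0.83, SE 0.10, adjusted p = 0.00245) and did not pass the test after restimulation (-0.23, adjusted p = 0.218), where Egr1 and Egr2 were higher. Nab1 was lower after restimulation (-0.44, adjusted p = 0.00116) and had 0.02 (adjusted p = 0.938) after co-culture. Rcor1, a corepressor subunit, was higher after restimulation (0.62, adjusted p = 0.000318). Its co-culture value of 0.43 (adjusted p = 0.0169) was not called with batch as a block (adjusted p = 0.0561), nor when CTRL replicate 2 or 3 was left out. Rxrb, a retinoid X receptor that pairs with Nur77 and Nurr1, was lower after restimulation (-0.42, adjusted p = 0.00849). After co-culture it had 0.38 (adjusted p = 0.0323), a call lost with batch as a block (adjusted p = 0.0681). The call was also lost on leaving out any of 5 of the 6 libraries (adjusted p up to 0.113). No partner was called higher with the block. Rxra, another retinoid X receptor gene, was lower after co-culture (-2.38, adjusted p = 0.0136), at 0.946 ± 0.331 CPM with ATRA and 4.98 ± 2.3 CPM in CTRL cells. That call was kept with the block (adjusted p = 0.0385) and lost without CTRL replicate 2 or 3. After restimulation Rxra had 0.07 (adjusted p = 0.926).

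Among calcium, calcineurin and NFAT pathway genes, which lead to Nfatc1, 9 of 30 tested were higher and 12 lower after restimulation (median -0.10), and 6 of 30 were higher and 3 lower after co-culture (median 0.08). Orai1, the pore of the store-operated calcium channel, ran with the members, with 49.6 ± 3.54 CPM in restimulated ATRA cells and 18.4 ± 2.16 CPM in restimulated CTRL cells, and 19.9 ± 1.56 CPM in co-cultured ATRA cells and 49.9 ± 1.39 CPM in co-cultured CTRL cells. Its log2 fold change was 1.44 (SE 0.12, adjusted p = 4.9e-07) after restimulation and -1.32 (SE 0.10, adjusted p = 0.000682) after co-culture. Plcg1, the phospholipase that starts the calcium signal, went the other way, at -0.72 (adjusted p = 3.78e-06) after restimulation and 1.24 (adjusted p = 0.00752) after co-culture. Of the other NFAT genes, Nfatc2 was higher in both states (1.24, adjusted p = 3.87e-08, and 0.66, adjusted p = 0.0103). Nfat5, the tonicity-responsive member, was higher after restimulation (1.08, adjusted p = 1.65e-08) and lower after co-culture (-0.56, adjusted p = 0.0321), a call lost without any of 5 of the 6 libraries (adjusted p up to 0.105), and Nfatc3 was lower after restimulation (-0.41, adjusted p = 0.000154). Rcan1, a calcineurin inhibitor that NFAT induces, did not pass the test in either state (0.14, adjusted p = 0.578, and -0.33, adjusted p = 0.234).

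Of the kinases and factors that act on Egr and Nr4a promoters, 9 of 25 were higher and 6 lower after restimulation (median 0.09), and 7 of 24 were higher and 2 lower after co-culture (median 0.27; 1 lower with the replicate block). Rasgrp1, the activator of Ras downstream of the TCR, had -1.27 (SE 0.18, adjusted p = 0.000529) after restimulation and 1.65 (SE 0.11, adjusted p = 0.000459) after co-culture. Mapk3, which encodes ERK1, likewise had -0.69 (adjusted p = 0.000274) and 0.89 (adjusted p = 0.00466). These signs are opposite to those of Egr1, Egr2 and the NR4A genes in both states. Rps6ka3, of the same list, had the signs of those members (0.43, adjusted p = 0.00014, and -0.45, adjusted p = 0.0338). Its co-culture call was lost with batch as a block (adjusted p = 0.0532) and was kept in only 1 of 6 fits with a library left out. Elk3 was lower after co-culture (-0.70, adjusted p = 0.00602) and not called after restimulation (-0.03, adjusted p = 0.726). Srf, which encodes the factor that binds CArG boxes, was higher after restimulation (0.79, adjusted p = 3.88e-05) and had 0.44 (adjusted p = 0.175) after co-culture. Crem, a CREB family gene, was higher after restimulation (1.86, adjusted p = 8.65e-09), and Creb1 lower (-1.06, adjusted p = 5.52e-07). Of the TCR complex and the proteins next to it, 8 of 20 were higher and 5 lower after restimulation (median 0.06), and 3 of 20 were higher and 5 lower after co-culture (median 0.04). Cd5, an inhibitory coreceptor whose level follows TCR signal, was lower in both states (-0.92, adjusted p = 3.52e-06, and -1.2, adjusted p = 0.000493), and Ubash3b, a phosphatase that restrains TCR signalling, was higher after restimulation (1.2, adjusted p = 4.04e-08) and lower after co-culture (-1.67, adjusted p = 0.00111).

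Other early genes of TCR signal were called higher in ATRA cells for 36 of 39 tested after restimulation (median 1.95, all genes 0.02), with Irf4 and Myc lower and Klf6 not called. Among them, Dusp5, a phosphatase of ERK, had 183 ± 11.4 CPM in restimulated ATRA cells and 35.9 ± 0.973 CPM in restimulated CTRL cells (log2 2.36, adjusted p = 2.62e-10), and Cd69, an activation marker, had 210 ± 12.8 and 41.2 ± 8.32 CPM (2.36, adjusted p = 1.48e-07). Irf4, itself raised by TCR signal, had -0.84 (adjusted p = 3.59e-06), and Myc, a driver of growth, had -1.67 (adjusted p = 1.51e-08). These 2 were thus lower in restimulated ATRA cells, where Egr1 and Egr2 were higher. After co-culture the list split, with 7 of 40 higher and 11 lower (median 0.04); the median of the 7 members was -1.85. Rel, an NF-κB subunit, had 34.5 ± 5.76 CPM in co-cultured ATRA cells and 182 ± 44.5 CPM in co-cultured CTRL cells (log2 -2.40, adjusted p = 0.000941). Irf8 was lower as well (-1.05, adjusted p = 0.00268), whereas Fosl2 (1.40, adjusted p = 0.0198) and Il2ra (0.45, adjusted p = 0.0118) were higher. The higher call with the smallest p was Klf2, a gene that TCR signal lowers rather than raises (4.29, adjusted p = 0.0027). It had 5.58 ± 1.49 CPM in co-cultured ATRA cells and 0.281 ± 0.205 CPM in co-cultured CTRL cells. The Fosl2 call was lost without any 1 CTRL library (adjusted p up to 0.0741), and the Il2ra call with batch as a block (adjusted p = 0.0614) or on leaving out CTRL replicate 2 or 3. In CTRL cells 37 of 40 were lower after restimulation than after co-culture (median -1.39), against 16.6% of all genes, and in ATRA cells 22 were higher and 11 lower (median 0.46), against 29.8% and 31.5%.

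Genes linked to Egr2 and Egr3 in anergy and feedback were higher for 11 and lower for 5 of 20 tested after restimulation (median 0.73), and higher for 6 and lower for 7 of 20 after co-culture (median 0.21). Cblb, a ubiquitin ligase, and Dgkz, a diacylglycerol kinase, both known Egr targets, were below CTRL in both states. Cblb had -0.63 (adjusted p = 1.16e-05) after restimulation and -0.87 (adjusted p = 0.0111) after co-culture, and Dgkz had -1.37 (adjusted p = 3.74e-08) and -0.60 (adjusted p = 0.0296); the co-culture call of Dgkz was lost with batch as a block (adjusted p = 0.0579) or on leaving out CTRL replicate 3, ATRA replicate 1 or ATRA replicate 2. Both were thus lower in ATRA than in CTRL cells after restimulation, where Egr2 was 6.54-fold higher with ATRA. The part of Egr2 in their levels was not tested. In that state 11 genes of the list were higher. Of those 11, Tnfrsf9 had the smallest p (2.05, adjusted p = 2.21e-10), and it had 0.35 (adjusted p = 0.192) after co-culture. Dgka, another diacylglycerol kinase, had -0.26 (adjusted p = 0.0315) after restimulation and, opposite to Dgkz, 0.83 (adjusted p = 0.0223) after co-culture. Both Dgka calls were lost on leaving out single libraries. Rnf128, the ligase GRAIL, was higher in ATRA cells after co-culture (3.18, SE 0.38, adjusted p = 0.0024) and had 0.56 (adjusted p = 0.135) after restimulation. Crtam, a surface receptor of activated CD8+ T cells, was higher after restimulation (1.21, adjusted p = 3.17e-07) and 13.2-fold lower after co-culture (-3.72, SE 0.18, adjusted p = 0.000181). Ndrg1, an anergy factor also known to respond to low oxygen, was higher in both states (4.05, adjusted p = 2.22e-09, and 3.52, adjusted p = 0.000444), and Nrgn, which encodes a calmodulin-binding protein, was lower in both (-3.69, adjusted p = 0.000494, and -6.17, adjusted p = 0.00084).

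Exhaustion genes linked to NR4A and NFAT were higher for 14 and lower for 2 of 22 tested after restimulation (median 0.99), and higher for 8 and lower for 6 of 21 after co-culture (median 0.35; 5 higher and 6 lower with the replicate block). Tigit, an inhibitory receptor, had 147 ± 2.3 CPM in restimulated ATRA cells and 37.2 ± 3.48 CPM in restimulated CTRL cells, and 52.7 ± 3.37 CPM in co-cultured ATRA cells and 116 ± 4.47 CPM in co-cultured CTRL cells (log2 1.99, adjusted p = 1.83e-09, and -1.13, adjusted p = 0.000772). Pdcd1, which encodes PD-1, was lower after co-culture (-3.02, SE 0.64, adjusted p = 0.0147) and had -0.03 (adjusted p = 0.829) after restimulation. Tox, an exhaustion regulator, was low in all groups, with 0.773 ± 0.135 CPM in restimulated ATRA cells, 0.906 ± 0.754 CPM in restimulated CTRL cells, 1.31 ± 1.15 CPM in co-cultured ATRA cells and 4.28 ± 1.22 CPM in co-cultured CTRL cells, and it did not pass the test in either state (adjusted p = 0.751 and 0.205). Tnfrsf18, the costimulatory receptor GITR, was higher in both states (1.65, adjusted p = 8.73e-09, and 1.24, adjusted p = 0.00197). Entpd1, which encodes CD39, was higher after co-culture (1.34, adjusted p = 0.00102), and Eomes, a T-box factor, was lower there (-1.55, adjusted p = 0.00133).

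The co-culture counts of these lists depended on single libraries, while the restimulated counts of early genes stayed at 35 to 36 higher whichever library was left out. The shares of all genes called after co-culture moved as well, from 18.1% higher and 15.5% lower with all libraries. They were 15.1% and 12.4% without CTRL replicate 1, 8.19% and 6.14% without CTRL replicate 2, and 7.59% and 5.44% without CTRL replicate 3. Without ATRA replicate 1, 2 and 3 they were 16.9% and 13.8%, 10.9% and 7.24%, and 22.3% and 23.1%. The counts below are to be read against these shares. Early genes called higher after co-culture numbered 4 without CTRL replicate 1, 2 without CTRL replicate 2 or 3, 4 without ATRA replicate 2, 11 without ATRA replicate 3 and 16 without both libraries that stood apart, while those called lower numbered 10 to 13 without any 1 library and 14 without both. Calcineurin and NFAT genes called higher numbered 3 without CTRL replicate 2 or 3 or ATRA replicate 2 and 12 without both, and those called lower 1 without ATRA replicate 2, 5 without ATRA replicate 3 and 9 without both. Exhaustion genes called higher numbered 2 without CTRL replicate 2 or 3 and 3 without ATRA replicate 2, and anergy genes called lower numbered 4 without CTRL replicate 3 or ATRA replicate 2. With the pair that stood apart left out, 9 exhaustion genes were called higher and 8 lower, and 12 anergy genes higher and 7 lower. For the upstream factors the count of higher calls ranged between 2 and 9 and that of lower calls between 1 and 4, for the TCR complex list the count of higher calls ranged between 1 and 5, and for the partners the counts ranged between 0 and 2 higher and between 1 and 4 lower, over the libraries left out in turn. Without both libraries that stood apart, 11 upstream factors were called higher and 5 lower, 10 genes of the TCR complex list higher and 8 lower, and 3 partners higher and 5 lower. In that fit 32.8% of all genes were called higher and 32.4% lower.

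**Figure D5:**
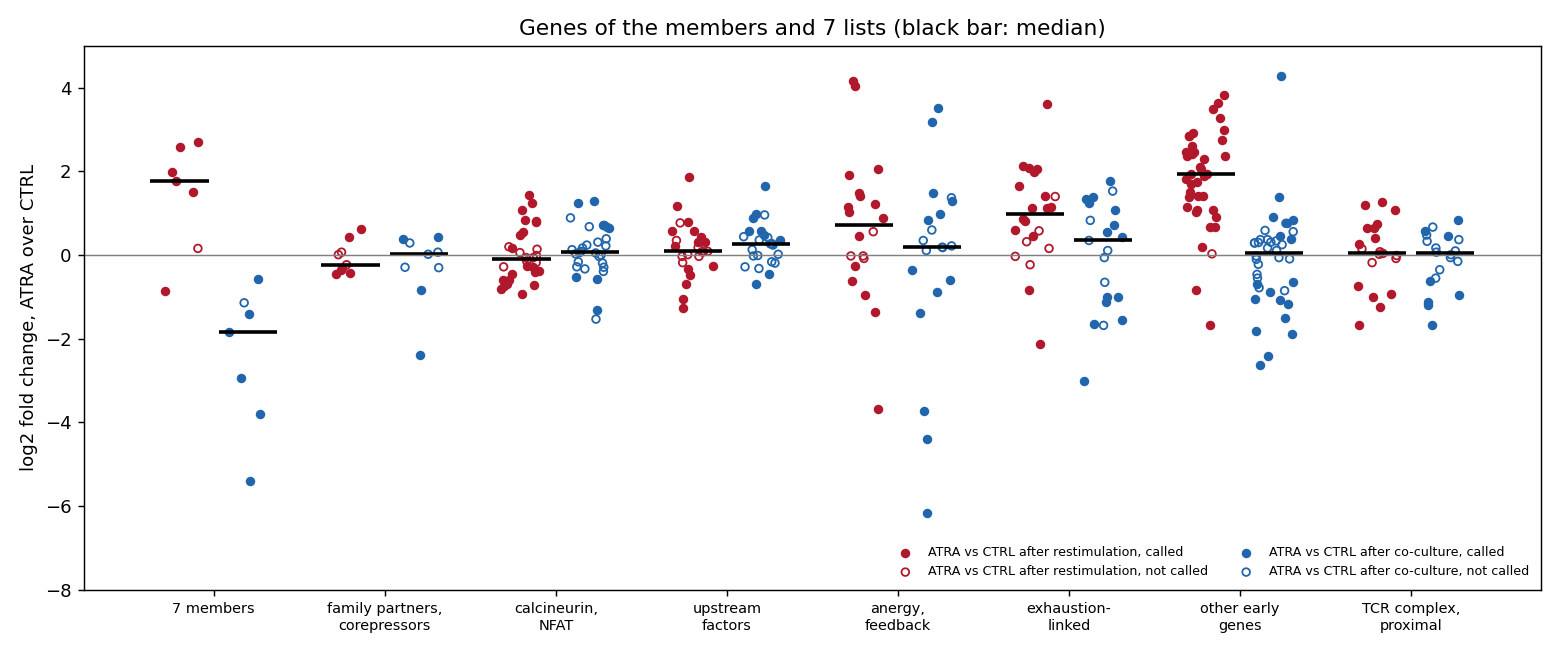
Log2 fold change of ATRA over CTRL for each tested gene of the members and of the 7 related lists, after restimulation and after co-culture; points are genes (filled where called) and horizontal bars list medians. The medians of the 7 members are 1.76 and -1.85, and those of the other early genes of TCR signal 1.95 and 0.04.

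Likeness of pattern was measured over the 12 libraries as the root mean square difference between log2 CPM values, each gene centred on its own mean, among 9400 genes. Of the members, Nr4a1 and Nr4a2 were closest to each other (0.578), and Egr2 was farthest from Nfatc1 (1.99) and Egr3 (1.84). The values were not scaled, so a distance holds the size of the changes as well as their direction. Egr2 and Nfatc1 had the same order of group means, with SDs over the libraries of 2.27 and 0.259. The genes nearest to Egr2 were Ccl4, a chemokine of activated T cells (0.522), Crabp2, a retinoic acid binding protein (0.641), and Ehd2, a membrane trafficking ATPase (0.647). Ccl4 had 642 ± 24.9 CPM in restimulated ATRA cells, 66.2 ± 14.4 in restimulated CTRL cells, 20.5 ± 12.5 in co-cultured ATRA cells and 535 ± 64.3 in co-cultured CTRL cells. Crabp2 had 33.1 ± 2.53, 1.73 ± 0.614, 0.788 ± 0.234 and 40.1 ± 4.56 CPM in the same order of groups. Both thus share the Egr2 pattern of high values in restimulated ATRA and co-cultured CTRL cells.

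Nearest to Nr4a3 were Serpinb9b, a granzyme inhibitor family gene (0.389), Ifng, the cytokine interferon gamma (0.463), and Rgs16, a regulator of G protein signals (0.583). Ifng had 384 ± 5.09 CPM in restimulated ATRA cells, 56.8 ± 2.67 in restimulated CTRL cells, 54.8 ± 38.6 in co-cultured ATRA cells and 778 ± 116 in co-cultured CTRL cells. Nr4a2 lay nearest to Rel (0.341), Epn2, an endocytic adaptor (0.359), and Crtam (0.427), and Nr4a1 to Ece1, a membrane protease (0.234), Tigit (0.299) and Nfkbiz, an NF-κB cofactor (0.302). Egr1 was nearest to Tnfsf8, the CD30 ligand (0.451), Slc1a4, an amino acid transporter (0.535), and Nt5e, which encodes CD73 (0.545). For Egr3 the nearest were Atp10a (0.33), Pop1 (0.355) and Ipcef1 (0.372), and for Nfatc1, whose own SD was 0.259, Tgif1 (0.0817), Ociad1 (0.0825) and Trbc2, a TCR beta constant gene (0.0928). Egr1, Egr3 and Nr4a3 were the members far lower in co-cultured ATRA replicate 3, and genes near them also ranged widely within that group. Tnfsf8 had 2.92 to 24.4 CPM there, Pop1 4.56 to 24.4 CPM and Ifng 10.6 to 82.1 CPM. The part of that library in these distances was not tested. All distances rest on the same libraries and are descriptions.

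Marker genes of other cells moved between groups as well. Except for CD4 T cells, some markers had no counts listed after co-culture, so the sums cover fewer genes there than after restimulation. Glioma markers without Vim, which T cells also express, summed to 81.5 to 89.4 CPM in restimulated ATRA cells, 88.5 to 99 in restimulated CTRL cells, 69.7 to 90.9 in co-cultured ATRA cells and 132 to 161 in co-cultured CTRL cells. With Vim the sums ran the other way after co-culture, at 982 to 1040 CPM in restimulated ATRA cells, 859 to 1050 in restimulated CTRL cells, 1390 to 1420 in co-cultured ATRA cells and 869 to 1020 in co-cultured CTRL cells, Vim itself having 897 to 955, 762 to 951, 1320 to 1330 and 709 to 887 CPM in that order. Loxl2 had 3.08 to 3.28, 1.08 to 1.9, 28.4 to 35.4 and 2.22 to 4.67 CPM, and Igfbp7 had 1.44 to 2.06, 13.2 to 23.6, 0.269 to 0.676 and 25 to 37.6 CPM. Axl made up most of the sum without Vim outside co-cultured ATRA cells, Gfap, where its counts were listed, was at 0, and Sparc did not pass 0.231 CPM. Of 9 dendritic cell markers (7 after co-culture), summed levels were 98.7 to 100 CPM, 76 to 112, 155 to 222 and 82.3 to 97.2 in the same order of groups. H2-Ab1 stood at 91.4 to 175 CPM in co-cultured ATRA cells and Clec9a at 0 to 0.123 CPM where listed. Natural killer markers summed to 1.36 to 3.83, 4.24 to 5, 0.769 to 2.12 and 9.42 to 13.1 CPM in that order, those of monocytes and macrophages to 23 to 24, 11.7 to 17.1, 17.7 to 24.7 and 13 to 13.2 CPM (Csf1r and Fcgr1 at 0 where listed), and those of B cells to 13.7 to 14, 4.2 to 5.28, 4.97 to 9.22 and 7.05 to 17.5 CPM. CD4 T cell markers, mostly Zbtb7b, summed to 23.5 to 26.4, 19.4 to 24.9, 67.9 to 79.1 and 43.1 to 46.4 CPM, and erythroid markers did not pass 0.895 CPM. The part of these cells in the levels of the 7 members was not tested.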

How the data were processed

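RNA was sequenced in bulk from sorted cells in 12 libraries, prepared with a stranded total RNA kit per the labels' protocols. The authors deposited whole-number counts per gene symbol, 1 table for each state, and TPM values after restimulation. The submitters' processing notes name build mm39 and the tools Salmon 1.10.3, STAR 2.7.11b, cutadapt 5.0 and DESeq2 1.42.1; which step each served, how strand was handled and which annotation was counted are not given in the sources used. The co-culture table had been filtered before deposit (its smallest row sum is 10), and the restimulated table holds 35588 rows, of which 16368 symbols were at 0 in all its libraries; for 32 repeated symbols the row with the largest total was kept. Columns of the TPM table carry other headings than the labels give and were used as replicates of their group only.

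Counts were analysed in R 4.3.3 with edgeR 4.0.16: TMM scaling, the filterByExpr filter by group, robust quasi-likelihood tests on the whole table, and Benjamini-Hochberg adjustment over all genes tested, calling genes at an adjusted p under 0.05. ATRA and CTRL were compared on the 6 libraries of a state; the difference between states and the effect of restimulation were fitted on 12 libraries and the genes in both tables. SEs were computed from the coefficient and its F. Levels are CPM scaled over 12 libraries; log2 CPM used a prior count of 2. Alternatives were DESeq2 1.42.0, RLE size factors, no filter, each library left out, a replicate block, and limma 3.58.1 on log2(TPM + 1). The procedure was tested on simulated data. The 3-count floor covers counting error only.

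The same replicate number marks a shared batch in the labels, so the numbers pair ATRA with CTRL libraries within a state. The deviations of paired libraries from the mean of their group had correlations of 0.01, -0.04 and 0.03 after restimulation and of 0.13, -0.05 and 0.06 after co-culture. No 2 libraries of a group agreed within sampling noise (smallest chi-square per degree of freedom 3.51).

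The members, the 7 gene lists, the 8 marker lists and the tests were chosen with earlier results of these data known. In each list the genes named were the called ones with the smallest p in each direction and genes fixed by name; of these, the text names those that bear on the members. The 3 nearest genes with a mean of at least 5 CPM were named for likeness. Promoter sequences come from RefSeq, build GRCm38.p6, not the build of the counts, so they carry no measured values.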

Additional observations from a re-analysis of the deposited data

Results flagged for a closer look

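The effect of prior ATRA differed between the restimulated and the co-cultured state by a test of the difference itself, edgeR's interaction term on all 12 libraries, for 6 of the 7 genes, against 23.6% of 12364 genes in that direction and 49.2% in either. The log2 fold change of ATRA over CTRL after restimulation exceeded that after co-culture by 8.10 for Egr2 (adjusted p = 1.46e-09), by 5.31 for Nr4a3 (adjusted p = 8.4e-05), by 4.70 for Nr4a2 (adjusted p = 2e-06), by 3.72 for Egr1 (adjusted p = 0.00161), by 3.39 for Nr4a1 (adjusted p = 1.54e-05) and by 0.73 for Nfatc1 (adjusted p = 0.00171). ATRA libraries were higher than the CTRL libraries of their batch in 3 of 3 restimulated batches and lower in 3 of 3 co-culture batches for each of these genes. The states were sequenced from different batch sets, so the state and the batch set cannot be told apart in this difference.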

How the results depend on the processing

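Of the alternative values computed for log2 fold changes of the 7 genes, 484 kept their side of the threshold, 9 lost the call and 4 gained it. No called value changed sign. Values that were not called could change sign, as did Egr3 in restimulated against co-cultured ATRA cells (0.20, and -0.25 without co-cultured ATRA replicate 3). All of these changes of call came from leaving out libraries and are given with the genes above. Leaving out 1 library at a time moved the co-culture count of members called lower between 3 and 7 and the count of all genes called between 1613 and 5617, against 4071 with all libraries. Leaving out co-cultured ATRA replicate 3 and CTRL replicate 1 together, chosen after seeing the data, gave 7980 called genes after co-culture. With the replicate block, which uses the labelled pairing, 5 members were called higher and 1 lower after restimulation and 6 lower after co-culture, with 7751 and 2892 genes called in all; among the lists it left 5 exhaustion genes, 0 partners called higher and 1 upstream factor called lower after co-culture. It changed no call of the 7 genes. With limma on log2(TPM + 1), 2 partners were called lower after restimulation.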
